A study of Homo sapiens with 12 samples.

Results

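The comparison set the SNU638 line carrying the third hairpin against SKA2 (sh-SKA2-3) beside the line carrying the second (sh-SKA2-2). Libraries were chosen by their titles, 3 for each line and 6 of the 12 in the series, and no control library entered the contrast itself. SNU638 is an established human gastric cancer cell line. All 4 lines of the series, the controls included, were infected with lentivirus and kept as stable puromycin-resistant cells. They carry a control hairpin (sh-control) or 1 of 3 hairpins against SKA2, with 3 libraries each, and the series sought the genes that SKA2 regulates in gastric cancer cells. A hairpin is represented by 1 stable line, so the hairpin and the history of its line cannot be told apart, and nothing in the labels tells whether separate cultures gave the 3 libraries of a line. The p-values therefore measure the spread between libraries, which may be technical.

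SKA2 forms, with SKA1 and SKA3, the SKA complex, named for the spindle and the kinetochore. The complex sits at the outer kinetochore with the NDC80 complex and keeps chromosomes attached to the ends of depolymerizing spindle microtubules until anaphase. A short hairpin RNA is cut by Dicer into a small interfering RNA that guides Argonaute to the target transcript. Hairpins of different sequence against the same transcript are used side by side because each may also act on other transcripts and each stable line has its own history.

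The 6 libraries held between 14693343 and 15894218 counts over 17303 genes, of which 12868 passed the expression filter and were tested. Values are counts scaled to library size (CPM) after TMM scaling, and a difference is the log2 of hairpin 3 over hairpin 2 with its standard error (SE), so that 1 stands for 2-fold higher with hairpin 3. Calls rest on edgeR's quasi-likelihood test at an adjusted p (Benjamini-Hochberg) below 0.05, and only called genes are described as higher, lower or changed. The epithelial genes EPCAM (175 to 297 CPM), KRT8 (311 to 1065), KRT18 (317 to 850) and KRT19 (187 to 455) were expressed in all 6 libraries. CDH1, which encodes E-cadherin, was low at 1.65 to 8.46 CPM, and CLDN4 stood at 0.193 to 0.989 CPM.

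The libraries of the lines also differed in how counts fell on long and short genes. The difference between the lines sloped by -0.28 on the log2 scale for each doubling of gene length over 12771 genes. Its median was 0.43 in the shortest of 10 equal groups of genes and -0.49 in the longest. Replicate 1 of hairpin 3 stood apart from its own group and closer to hairpin 2. Its length slope was 0.10, against -0.14 and -0.19 in replicates 2 and 3 and 0.18 to 0.23 in the hairpin 2 libraries. Levels also sloped with GC content, by -1.83 per unit of GC fraction in replicate 1 and by 0.73 and 1.12 in replicates 2 and 3. The GC slopes of the hairpin 2 libraries were -1.35, -1.68 and -2.11. The chi-square of counts per degree of freedom, which is 1 for sampling noise alone, was 32.4 and 46.8 between replicate 1 and replicates 2 and 3 of hairpin 3, against 2.92 between replicates 2 and 3 and 2.24 to 5.35 between the hairpin 2 libraries. Control libraries serve as reference levels, and with the rest of the series they also entered the fit. They thus shared in setting the filter, the scaling and the spread behind the calls. With the 6 libraries of hairpins 2 and 3 fitted alone, 4015 genes were called higher and 3922 lower, against 4295 and 4105 in the main fit. The length slopes of the control libraries were -0.07, -0.27 and -0.35. Replicate 1 stood apart among the controls too. The chi-square per degree of freedom was 24.7 and 51.0 between it and control replicates 2 and 3, and 6.62 between those. Results were also computed with per-library offsets for length and GC content, and with replicate 1 as the only hairpin 3 library, a choice made after the data were seen. Values from either are given beside many of the results that they moved, and the plot of list medians shows every list under both.

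**Figure D1:**
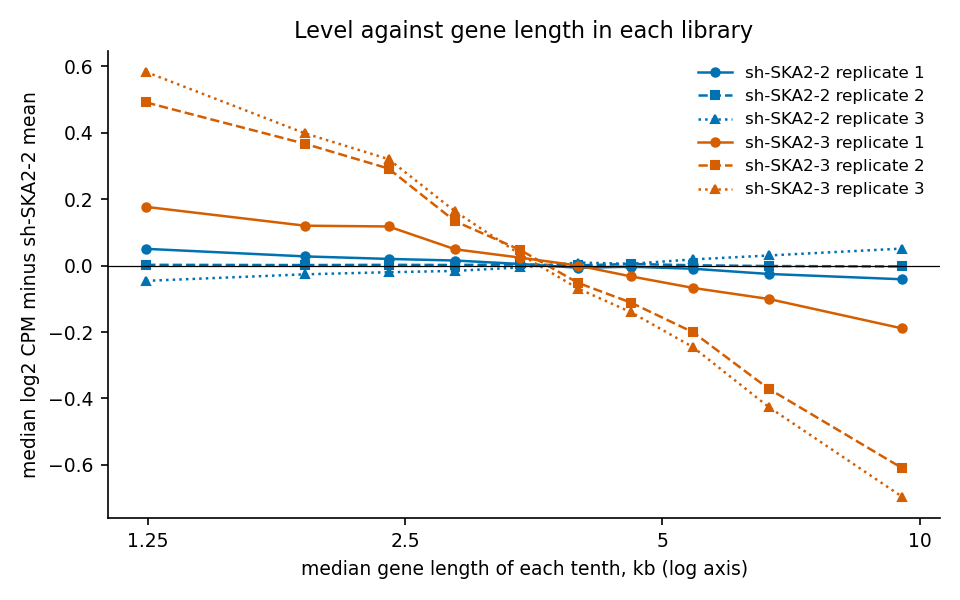
Median log2 CPM of each library minus the mean of the 3 sh-SKA2-2 libraries, for 10 equal groups of genes by length (median length in kb on a log axis). Replicates 2 and 3 of sh-SKA2-3 run from 0.49 and 0.58 in the shortest group to -0.61 and -0.70 in the longest, replicate 1 from 0.18 to -0.19, and the sh-SKA2-2 libraries stay between -0.05 and 0.05.

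SKA2 itself did not separate the lines. SKA2 (Entrez 348235, chromosome 17, 59109951 to 59155269, minus strand, GRCh38) stood at 23.3, 25.3 and 27.2 CPM in the hairpin 2 libraries and at 24.9, 26.9 and 28.0 CPM in the hairpin 3 libraries. The groups overlapped, and both lay far below the control mean of 120 CPM. The difference was 0.07 ± 0.08 (95% interval -0.11 to 0.26, adjusted p = 0.452 in edgeR), and an exact two-sided permutation test gave p = 0.5, where 3 libraries against 3 cannot go below 0.1. It was -0.02 with replicate 1 alone. On log2(TPM + 1) it was -0.19, where the median of all genes was -0.22, so that SKA2 stood 0.03 above that median. Neither was called.

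Both partners of SKA2 in its complex were higher with hairpin 3. SKA1 (Entrez 220134) stood at 18.8, 18.4 and 20.03 CPM with hairpin 2 and at 53.9, 47.5 and 47.7 CPM with hairpin 3, and its control mean was 79.9 CPM. The difference was 1.38 ± 0.07, and every hairpin 3 library lay above every hairpin 2 library and below the control mean. SKA3 (Entrez 221150) stood at 21.8, 18.8 and 20.7 CPM against 85.7, 83.4 and 83.8 CPM, a difference of 2.04 ± 0.07. Its hairpin 3 libraries were at the level of the control mean, 85.4 CPM. PRR11, a cell-cycle gene that lies head to head with SKA2 (chromosome 17, 59155499 to 59204705, plus strand), stood at 67.8, 62.6 and 70.8 CPM against 127, 88.5 and 85.8 CPM. The groups did not overlap, replicate 1 of hairpin 3 was the highest, and the difference of 0.58 ± 0.16 (adjusted p = 0.00624 in edgeR) became 0.92 with that replicate alone and 0.38 without it, and was not called on log2(TPM + 1), at 0.17.

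**Figure D2:**
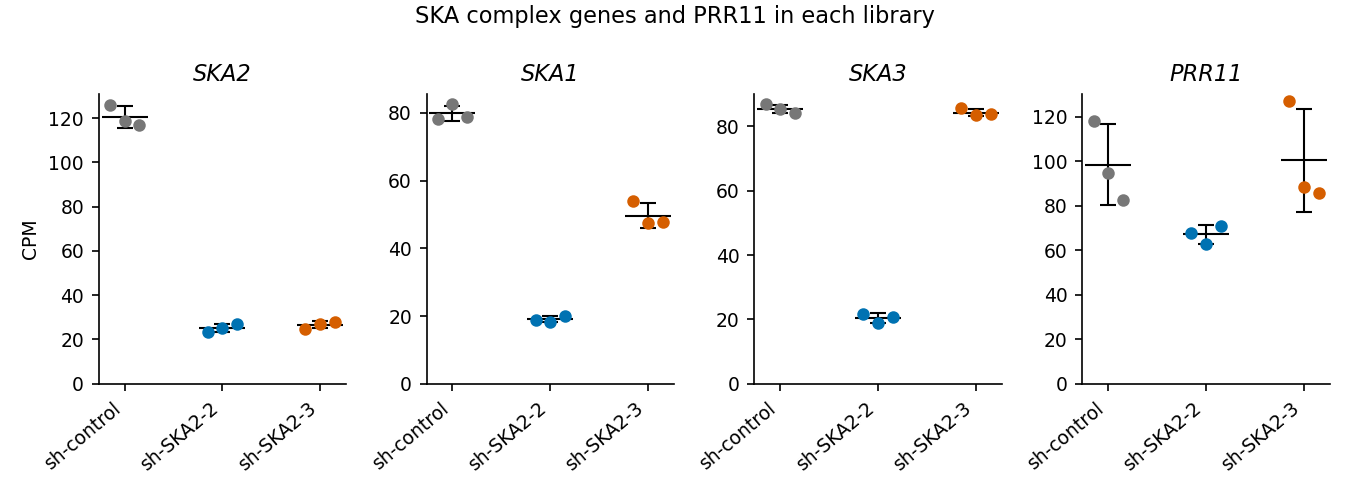
CPM of SKA2, SKA1, SKA3 and PRR11 in each library (points) with the mean and SD of the 3 libraries of a line (bars), for sh-control, sh-SKA2-2 and sh-SKA2-3. SKA2 is between 23.3 and 28.0 CPM in all 6 knockdown libraries, while SKA3 is 18.8 to 21.8 CPM with sh-SKA2-2 and 83.4 to 85.7 CPM with sh-SKA2-3.

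With SKA2 at the same level, most of the transcriptome differed between the lines. Of the 12868 genes tested 8400 were called (65.3%), 4295 higher (33.4%) and 4105 lower (31.9%) with hairpin 3. A called difference of at least 2-fold was found for 1046 genes that were higher (8.13%) and 1175 that were lower (9.13%). These shares are the background against which the counts for each gene group below are set. The median difference over all tested genes was 0.02. Every hairpin 3 library lay above every hairpin 2 library in 34.8% of the genes tested, and below in 34%. On log2(TPM + 1) the median of all genes moved to -0.22, a shift that every value given on that scale carries, and limma called 2469 higher and 5677 lower, so that 30.3% of the calls were higher against 51.1% in edgeR. No group was tested as a set, and counts and medians describe the lists. Where medians against the control are given for both lines, both share the same control libraries.

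**Figure D3:**
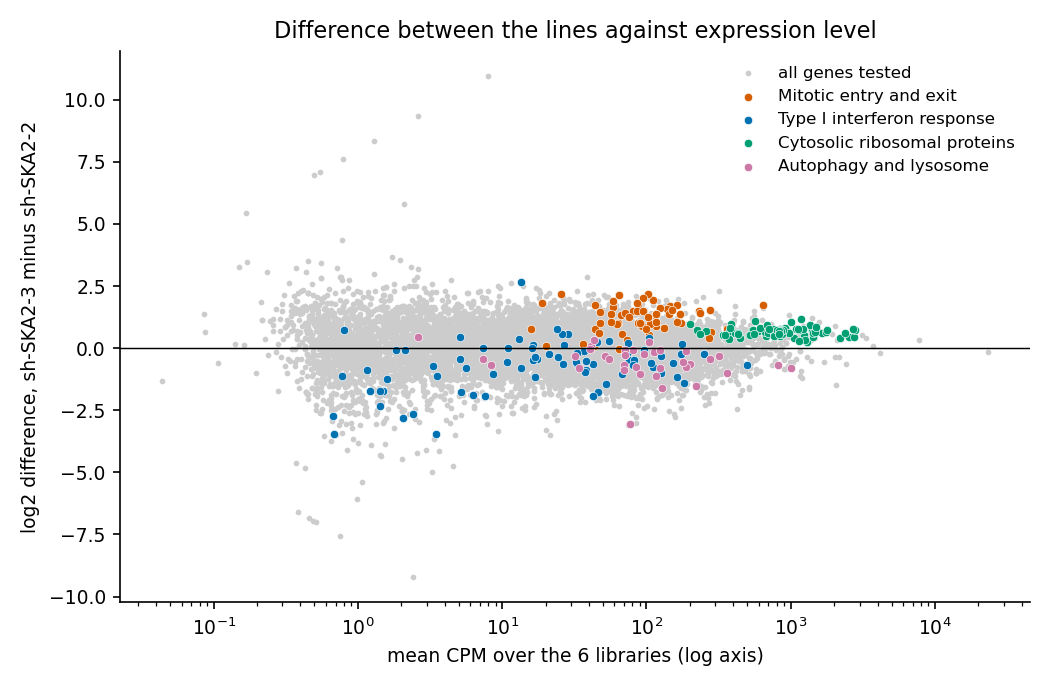
Log2 difference of every tested gene (sh-SKA2-3 minus sh-SKA2-2) against its mean CPM over the 6 libraries on a log axis, with 4 gene lists in colour. The mitotic genes lie around a median of 1.35, the ribosomal protein genes around 0.66, and the interferon and the autophagy and lysosome genes around -0.59 and -0.44.

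Among the largest rises with hairpin 3 were 2 imprinted genes and several genes of secreted or membrane proteins. IGF2, the imprinted growth factor gene, had 3 reads in all with hairpin 2 and 194 with hairpin 3, a ratio of 62.8 (95% counting interval 21.2 to 307), with a control mean of 6.55 CPM. PEG10, an imprinted gene derived from a retrotransposon, stood at 0.537, 0.707 and 0.593 CPM against 6.44, 3.67 and 3.48 CPM (2.87 ± 0.34). MLPH, which encodes the melanophilin linker of vesicles to myosin, was the most abundant gene of this set, at 9.26, 8.30 and 10.1 CPM against 59.8, 72.2 and 72.2 CPM. Its difference was 2.88 ± 0.11, and its hairpin 3 level was still under the control mean of 125 CPM. SOCS3, the feedback inhibitor of JAK and STAT signalling, stood at 4.09, 3.28 and 3.76 CPM against 21.7, 24.5 and 24.2 CPM (2.66 ± 0.10). RCN3 (3.68 ± 0.46), FNDC10 (3.25 ± 0.32), MANSC4 (3.20 ± 0.18), EFCAB12 (2.98 ± 0.27), the retinol-binding protein receptor gene STRA6 (2.72 ± 0.33) and the transcobalamin gene TCN2 (2.72 ± 0.26) completed the set with 2 uncertain members. P2RY11 had no read with hairpin 2 and 755 with hairpin 3, at least 244-fold higher against a floor of 3 reads over the group, but it shares its sequence with a readthrough transcript from the gene before it. MCAM, an adhesion molecule gene, was uneven within hairpin 3 at 0.846, 2.28 and 7.78 CPM, and its difference of 3.54 ± 1.26 was not called without replicate 3 (2.32), without any 1 of the hairpin 2 libraries (3.31 to 3.73), with replicate 1 alone (1.44) or on log2(TPM + 1) (0.74).

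The largest falls were genes of low level in the controls, whose means there ran from 0 to 2.42 CPM. SERPINB7, a clade B serpin gene, stood at 5.97, 6.11 and 6.85 CPM with hairpin 2 and at 0, 0.253 and 0.316 CPM with hairpin 3 (-4.99 ± 0.49), with 0.383 CPM in the controls. CHST11, a chondroitin sulfotransferase gene, stood at 8.39, 9.39 and 8.50 CPM against 0.325, 0.380 and 0.253 CPM (-4.74 ± 0.28), with 0.361 CPM in the controls. UBD, the ubiquitin-like modifier induced by inflammatory cytokines, stood at 5.37, 4.89 and 4.42 CPM against 0.195, 0.253 and 0.316 CPM (-4.22 ± 0.24). In each of these genes the hairpin 3 libraries lay close to or under the control mean. CALB2, the calretinin gene, had 96 reads with hairpin 2 and 2 with hairpin 3, a ratio of 49.4 (95% counting interval 13.3 to 414). MYCT1 (-4.44 ± 0.36), TCIM (-4.34 ± 0.45), TMEM140 (-4.32 ± 0.78), the crystallin-like thyroid hormone binder CRYM (-4.15 ± 0.32), PLK5 (-3.87 ± 0.51), the endogenous retroviral gene ERVH48-1 (-3.80 ± 0.45) and the cytokine gene IL16 (-3.65 ± 0.23) fell with them. Several of these values rest on few hairpin 3 reads, 6 each for TCIM, TMEM140 and ERVH48-1, 8 for MYCT1 and 9 each for SERPINB7 and PLK5. TCIM, TMEM140 and SERPINB7 had no reads in replicate 1 of hairpin 3, and no fold is given for that library alone. PHOSPHO2-KLHL23 is itself a readthrough transcript that shares sequence with its parent genes, and its 219 reads with hairpin 2 against none with hairpin 3 are uncertain for that reason (at least 75.2-fold lower against the same floor).

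The kinetochore genes as a group were higher with hairpin 3. Of 33 members 28 were higher and 1 lower, with a median of 1.14, and their medians against the control were -1.28 with hairpin 2 and -0.01 with hairpin 3. NDC80, which binds the microtubule, stood at 17.7, 18.01 and 16.67 CPM against 72.1, 64.7 and 64.4 CPM (1.94 ± 0.07), and its partner NUF2 at 15.7, 15.6 and 14.9 CPM against 70.7, 70.6 and 67.8 CPM (2.18 ± 0.08). ZWINT, which recruits checkpoint motors, differed by 1.67 ± 0.06, the inner kinetochore gene CENPN by 1.76 ± 0.07 and HJURP, the chaperone of the centromeric histone, by 1.42 ± 0.06. The exception was CENPC, the scaffold of the inner kinetochore, which was lower (-0.32 ± 0.09) though not with the offsets or with replicate 1 alone, and CENPL (0.34), CENPT (0.29), KNL1 (0.53) and SKA2 were not called. In bulk RNA fewer cells of a kind, such as cycling cells, and less of a transcript per cell cannot be told apart. Here and below, members that stand outside the larger side of a list are named after their values were seen.

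Spindle checkpoint and chromosomal passenger genes showed the same direction. Of 18 members 16 were higher, 2 (MAD2L1BP, 0.26, and ZWILCH, 0.15) were not called and none was lower by edgeR, by edgeR at an unadjusted p under 0.05, by DESeq2 or by limma, with a median of 1.08 and medians against the control of -0.78 with hairpin 2 and 0.25 with hairpin 3. MAD2L1, the checkpoint effector, stood at 64.2, 70.0 and 68.1 CPM against 211, 197 and 204 CPM (1.60 ± 0.06). The passenger genes BIRC5, which encodes survivin (1.71 ± 0.11), and CDCA8, which encodes borealin (1.69 ± 0.07), differed by more than BUB3 (0.85 ± 0.06) and TRIP13 (0.87 ± 0.06), which load and remodel the checkpoint complex. BUB1, the checkpoint kinase, differed by 1.39 ± 0.11.

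Genes of mitotic entry and exit held the highest median of the 35 lists described. Of 64 members 60 were higher, 42 of them by at least 2-fold, with a median of 1.35. None was lower by edgeR, by edgeR at an unadjusted p under 0.05 or by DESeq2, and 1 was by limma on log2(TPM + 1). Their medians against the control were -1.17 with hairpin 2 and 0.30 with hairpin 3. CCNA2, the cyclin of S phase and mitotic entry, stood at 32.6, 36.5 and 41.2 CPM against 179, 164 and 161 CPM (2.19 ± 0.09), with a control mean of 93.1 CPM. DLGAP5, a spindle microtubule protein, stood at 24.0, 24.6 and 23.1 CPM against 113, 99.5 and 102 CPM (2.13 ± 0.07), with a control mean of 74.2 CPM. In both genes every hairpin 3 library was above the control mean and every hairpin 2 library below it. NEK2, the centrosome kinase, stood at 7.92, 9.84 and 9.89 CPM against 48.3, 39.8 and 37.8 CPM (2.19 ± 0.12). TPX2, which activates Aurora A (1.55 ± 0.05), KIFC1, a spindle motor (1.51 ± 0.05), KIF20A, a motor of cytokinesis (1.89 ± 0.07), and NUSAP1, a spindle protein (1.73 ± 0.07), moved with them. The 4 members not called were FZR1 (-0.04), LIN54 (0.15), LIN9 (0.10) and MASTL (0.08).

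Promoter sequences of the 3 mitotic genes with the largest differences are shown because genes of late cell cycle are known to be repressed through the cell cycle homology region, here searched as TTTGAA, and activated by NF-Y at CCAAT boxes. They run from 250 bases before to 50 bases after the start of the gene in RefSeq (GRCh38.p14), 5′ to 3′ on the strand of the gene, and capitals mark every match of either motif on either strand. Their positions are chr4:121823834-121824133 (minus strand) for CCNA2, chr1:211675572-211675871 (minus strand) for NEK2 and chr14:55191536-55191835 (minus strand) for DLGAP5.
CCNA2: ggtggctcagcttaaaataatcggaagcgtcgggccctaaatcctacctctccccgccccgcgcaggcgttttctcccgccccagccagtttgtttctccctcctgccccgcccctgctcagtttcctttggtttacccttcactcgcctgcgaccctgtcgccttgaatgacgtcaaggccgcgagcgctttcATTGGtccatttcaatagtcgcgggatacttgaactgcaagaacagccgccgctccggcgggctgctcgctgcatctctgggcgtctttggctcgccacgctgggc
NEK2: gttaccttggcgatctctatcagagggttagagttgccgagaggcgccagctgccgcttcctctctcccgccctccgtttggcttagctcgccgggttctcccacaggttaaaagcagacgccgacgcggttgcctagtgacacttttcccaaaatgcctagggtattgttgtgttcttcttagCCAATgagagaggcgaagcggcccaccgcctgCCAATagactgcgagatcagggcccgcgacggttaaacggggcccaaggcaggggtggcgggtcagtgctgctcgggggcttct
DLGAP5: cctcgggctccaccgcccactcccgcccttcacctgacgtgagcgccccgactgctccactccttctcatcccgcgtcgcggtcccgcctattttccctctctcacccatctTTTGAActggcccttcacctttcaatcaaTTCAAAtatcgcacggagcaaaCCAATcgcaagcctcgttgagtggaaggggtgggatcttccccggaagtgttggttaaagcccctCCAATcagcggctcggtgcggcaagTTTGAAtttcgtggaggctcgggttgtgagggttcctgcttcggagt
The CCNA2 window held 1 CCAAT box, the NEK2 window 2 and the DLGAP5 window 2 with 3 copies of TTTGAA. Of the 60 members called higher, 52 had a promoter in the RefSeq table, of which 34 (65.4%) held TTTGAA and 36 (69.2%) held CCAAT. Over all 27305 promoters of the table the shares were 15.4% and 35.7%, and over the 10540 promoters of tested genes 10.1% and 37.0%. A match says only that the letters are present, and no match says nothing about the factor.

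DNA replication and recombination genes were higher with hairpin 3 as well. Of 59 replication genes 53 were higher and 1 lower (ORC4, -0.25 ± 0.07, not called with the offsets or with replicate 1 alone), with a median of 0.88 and medians against the control of -0.84 and 0.03 for hairpins 2 and 3. RRM2, the ribonucleotide reductase subunit that sets nucleotide supply in S phase, stood at 85.7, 101 and 95.3 CPM against 443, 382 and 362 CPM (2.07 ± 0.10). PCNA, the polymerase clamp, stood at 124, 121 and 117 CPM against 308, 348 and 362 CPM (1.49 ± 0.07). In both genes all hairpin 3 libraries were above the control means of 265 and 279 CPM. TYMS (1.53 ± 0.07) and DUT (1.52 ± 0.08), both of thymidylate supply, GINS1, a helicase subunit (1.64 ± 0.07), and POLD3, a polymerase subunit (1.29 ± 0.07), were also higher. CDC7 (0.28), DCK (0.36), GINS3 (0.15), ORC2 (0.09) and TOPBP1 (0.05) were not called.

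Of 31 genes of homologous recombination and the Fanconi pathway 23 were higher and 2 lower, with a median of 0.86. FANCI stood at 53.1, 49.6 and 51.2 CPM against 208, 184 and 178 CPM (1.89 ± 0.07), and MND1, a recombination cofactor best known from meiosis, at 6.71, 5.27 and 5.40 CPM against 21.3, 24.5 and 24.7 CPM (2.02 ± 0.13). CHEK1, the replication checkpoint kinase (1.41 ± 0.07), RAD54L (1.36 ± 0.07), RAD51AP1 (1.39 ± 0.10) and FANCC (1.21 ± 0.08) followed. The lower members were ATM, the kinase that responds to double-strand breaks (-0.95 ± 0.31), and FANCL (-0.22 ± 0.07), neither of them called with replicate 1 alone.

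Genes of G1 control moved in both directions. CDKN2B, the CDK4 and CDK6 inhibitor p15, stood at 259, 268 and 273 CPM with hairpin 2 and at 45.0, 44.2 and 38.4 CPM with hairpin 3 (-2.65 ± 0.09), against 29.3 CPM in the controls. CDKN1B, the CDK inhibitor p27, stood at 136, 138 and 144 CPM against 37.7, 37.1 and 33.3 CPM (-1.95 ± 0.09), against 39.0 CPM in the controls. Every hairpin 3 library of CDKN1B lay below the control mean and every one of CDKN2B above it, and the hairpin 2 libraries were several-fold above it in both genes. CDK6 (-2.01 ± 0.18) and CCND2 (-0.83 ± 0.08), which drive G1, were lower too (CCND2 by -0.53 with the offsets), while E2F2 (1.94 ± 0.10) and CCNE1 (0.88 ± 0.08) were higher. Over the list 14 of 28 members were higher and 8 lower, against 33.4% and 31.9% over all genes tested, with a median of 0.32.

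The replication-dependent histone genes went the other way from the replication genes. Their mature transcripts normally lack a poly(A) tail, and the libraries were made from poly(A) RNA. Of the 56 measured, 23 passed the filter, of which 11 were lower and none higher, with a median of -0.79. None was higher by edgeR at an unadjusted p under 0.05, by DESeq2 or by limma either, and with the offsets 16 were lower and the median was -1.34. H2BC12, the most abundant of those named, stood at 73.2, 73.9 and 72.8 CPM against 30.5, 40.7 and 41.9 CPM (-0.96 ± 0.13, and -1.71 with the offsets). H2AC6 (-2.32 ± 0.19), H2BC5 (-1.41 ± 0.11), H1-2 (-1.39 ± 0.15), H3C6 (-1.30 ± 0.11) and H4C15 (-1.03 ± 0.10) were lower with it, and the control means of these 5, 2.32 to 9.59 CPM, were below all of their hairpin 2 libraries.

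**Figure D4:**
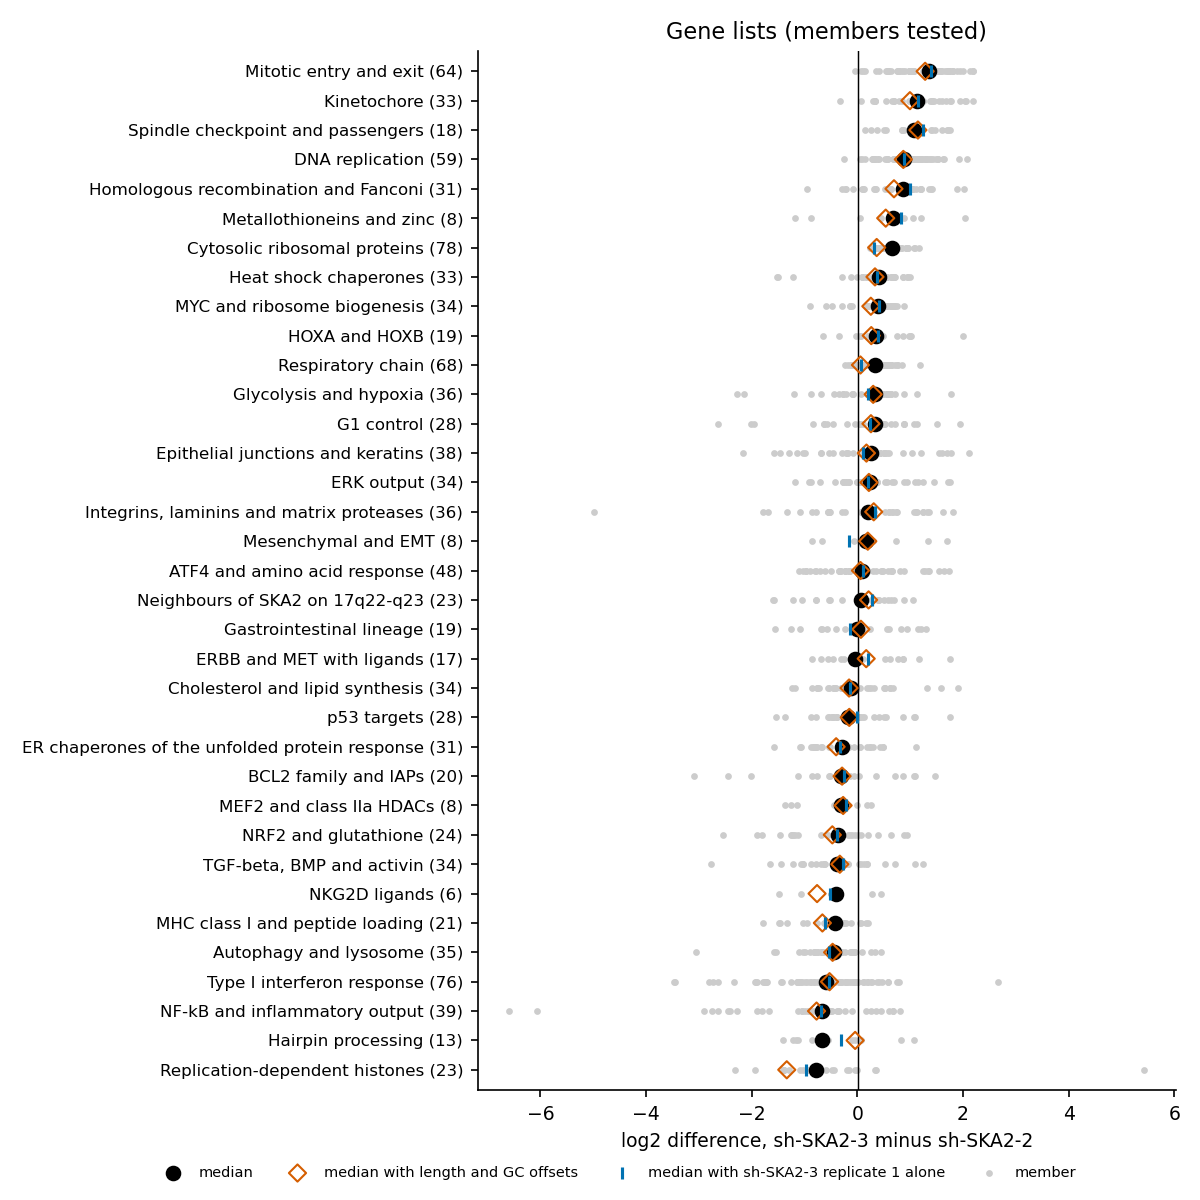
Log2 difference (sh-SKA2-3 minus sh-SKA2-2) of the tested members of each of 35 gene lists (grey points), with the list median (black). Open diamonds give the median with length and GC offsets and blue bars the median with sh-SKA2-3 replicate 1 alone. The vertical line is the median of all genes tested (0.02). The outlying points of H4C11, CX3CL1 and CXCL10 are fitted values from few reads. The mitotic median stays between 1.28 and 1.39 across the 3, and that of the respiratory chain drops from 0.34 to 0.06.

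Interferon response genes were lower with hairpin 3. Type I interferon acts through the JAK kinases and the STAT and IRF factors on a set of antiviral effector genes. Of 76 tested members 48 were lower, 22 of them by at least 2-fold, and 8 were higher, with a median of -0.59. The medians against the control were 0.91 with hairpin 2 and 0.33 with hairpin 3. DDX58, the RNA sensor RIG-I, stood at 68.7, 71.9 and 73.0 CPM against 26.3, 19.4 and 17.1 CPM (-1.77 ± 0.13), with 22.2 CPM in the controls. IRF1, an interferon-induced transcription factor, stood at 80.0, 72.1 and 78.8 CPM against 24.4, 28.3 and 31.5 CPM (-1.46 ± 0.11), with 22.3 CPM in the controls. Both genes were near the control level with hairpin 3 and over 3 times it with hairpin 2. The restriction factor TRIM5 (-1.91 ± 0.10), the nuclear body gene SP100 (-0.99 ± 0.06) and the helicase gene HELZ2 (-1.05 ± 0.07) were lower as well. SOCS3, counted in this list as a brake, was the sole member at least 2-fold higher.

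The promoters of 2 interferon-induced genes and of the chemokine gene CXCL10 are shown because such genes are bound at known short elements. The elements searched were GAAANNGAA, the core of the interferon response element, and GGGANNTTC, a core of the NF-kB site, on either strand, with matches in capitals in windows defined as above. GBP4, a guanylate-binding protein gene (chr1:89198893-89199192, minus strand), stood at 7.05, 5.79 and 6.46 CPM against 0.911, 0.316 and 0.506 CPM. RSAD2, the antiviral enzyme viperin (chr2:6865635-6865934, plus strand), stood at 4.30, 2.32 and 4.28 CPM against 0.260, 0.380 and 0.885 CPM. CXCL10 (chr4:76023448-76023747, minus strand) had 89 reads with hairpin 2 and 1 with hairpin 3, a ratio of 91.7 (95% counting interval 16.04 to 3661).
GBP4: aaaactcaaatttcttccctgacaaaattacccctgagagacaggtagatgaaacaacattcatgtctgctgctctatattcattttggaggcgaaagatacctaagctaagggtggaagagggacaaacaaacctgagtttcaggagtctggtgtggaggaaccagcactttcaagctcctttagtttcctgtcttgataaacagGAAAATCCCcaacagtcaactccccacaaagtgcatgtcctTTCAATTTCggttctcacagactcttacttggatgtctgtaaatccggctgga
RSAD2: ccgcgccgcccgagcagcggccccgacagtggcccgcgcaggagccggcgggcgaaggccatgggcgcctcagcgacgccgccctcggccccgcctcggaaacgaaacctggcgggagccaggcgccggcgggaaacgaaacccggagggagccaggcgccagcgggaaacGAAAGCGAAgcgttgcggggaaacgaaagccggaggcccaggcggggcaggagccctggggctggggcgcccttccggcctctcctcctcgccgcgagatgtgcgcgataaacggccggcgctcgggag
CXCL10: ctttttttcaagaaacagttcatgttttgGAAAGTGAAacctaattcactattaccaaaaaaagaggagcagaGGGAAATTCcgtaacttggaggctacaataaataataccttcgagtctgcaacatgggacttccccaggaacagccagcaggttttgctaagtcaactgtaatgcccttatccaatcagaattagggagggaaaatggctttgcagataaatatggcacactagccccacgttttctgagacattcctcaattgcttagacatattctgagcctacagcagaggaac
The windows of GBP4 and CXCL10 each held 1 match of both elements and that of RSAD2 1 match of the interferon element. The windows of SAMD9L, TNF and TRAF1, which were also among the largest falls of their lists, held neither element and are not printed. The windows shown are thus those with a match. Of the 36 interferon-list genes called lower with a listed promoter, 19 (52.8%) held GAAANNGAA, against 8.29% of all promoters and 6.58% of those of tested genes, and 3 of the 5 called higher with a promoter held it too. Of the 22 NF-kB-list genes called lower with a promoter 9 (40.9%) held GGGANNTTC, against 4.21% and 4.05%, as did both of the higher genes with a promoter.

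MHC class I genes, which present peptides to cytotoxic T cells, were lower in the same comparison. Of 21 tested members 14 were lower and 1, TAP2 (0.20 ± 0.06), was higher, with a median of -0.42 that became -0.66 with the offsets. HLA-B stood at 459, 471 and 471 CPM against 113, 138 and 153 CPM (-1.80 ± 0.12), with 143 CPM in the controls. B2M, the light chain, stood at 477, 477 and 496 CPM against 262, 296 and 294 CPM (-0.77 ± 0.06), with 194 CPM in the controls. TAP1, the peptide transporter (-1.49 ± 0.09), TAPBP, which loads peptides (-1.34 ± 0.06), HLA-F (-1.47 ± 0.12) and HLA-C (-0.95 ± 0.12) were also lower, and reads of the class I heavy chains may be shared among these similar genes. Among the ligands of the activating receptor NKG2D, MICA (-1.49 ± 0.09) and MICB (-1.06 ± 0.10) were lower, and ULBP1 (0.44 ± 0.14) and ULBP2 (-0.45 ± 0.16) were called by a margin that single libraries decided. ULBP1 was not called on log2(TPM + 1) (0.13), without replicate 1 of hairpin 2 (0.38) or replicate 2 of hairpin 3 (0.38), nor ULBP2 when the 6 libraries were fitted alone (-0.45), without replicate 1 or 2 of hairpin 2 (-0.32 and -0.47), without replicate 2 or 3 of hairpin 3 (-0.38 and -0.46) or with replicate 1 alone (-0.33), and it was -0.81 with the offsets. RAET1L and ULBP3 (0.27) were not called, and ULBP3 turned to -0.20 with the offsets.

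NF-kB and inflammatory output was lower in most members, with named exceptions. Of 39 tested members 27 were lower, 14 by at least 2-fold, and 3 were higher, with a median of -0.67 and medians against the control of 0.34 with hairpin 2 and -0.52 with hairpin 3. TRAF1, a signalling adaptor induced by NF-kB, stood at 33.2, 35.0 and 37.1 CPM against 4.49, 5.88 and 5.25 CPM (-2.75 ± 0.12), and its control mean of 12.9 CPM lay between the lines. BIRC3, the inhibitor of apoptosis and NF-kB target, stood at 655, 719 and 781 CPM against 166, 113 and 117 CPM (-2.44 ± 0.17), with 235 CPM in the controls. CSF1, the macrophage growth factor gene, stood at 38.6, 40.1 and 39.1 CPM against 5.59, 7.53 and 5.82 CPM (-2.63 ± 0.14). TNFAIP2 (-1.81 ± 0.11), CYLD, the deubiquitinase that restrains the pathway (-1.89 ± 0.14), and the adhesion gene ICAM1 (-1.04 ± 0.06) were lower as well. The 3 higher members were the neutrophil chemokine genes CXCL1 (0.81 ± 0.09) and CXCL3 (0.45 ± 0.08) and the cytokine gene LIF (0.60 ± 0.05).

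Most markers of other cell types were at low levels in these cells. Of 33 such markers 7 passed the filter, of which CD68 (0.97 ± 0.11), CD79A (2.02 ± 0.30), CD8A (1.65 ± 0.29) and PPBP (0.97 ± 0.24) were higher and COL1A1 (-0.67 ± 0.17) lower with hairpin 3. PPBP was 0.43 with the offsets and not called with replicate 1 alone (0.74), where COL1A1 was -1.13. The summed level of 6 T and NK cell markers was 0.725 to 1.03 CPM with hairpin 2 and 2.09 to 2.93 CPM with hairpin 3, and of 6 myeloid markers 11.1 to 13.8 and 21.7 to 26.0 CPM. The 6 endothelial markers summed to 0.134 to 0.659 and 0.316 to 0.569 CPM. The defining T cell genes CD3D, CD3E and CD3G averaged 0.0112, 0.0214 and 0.0110 CPM, and CD79B, MZB1 and DES were at 0. CD68 carried most of the myeloid sum, at 17.1 CPM on average. Their part in the immune gene differences was not tested.

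Genes of cell death moved in both directions. BMF, a BH3-only initiator of apoptosis, stood at 138, 136 and 126 CPM against 15.03, 15.4 and 16.2 CPM (-3.10 ± 0.09), and both lines were above the control mean of 2.21 CPM. BCL2L2, which opposes apoptosis, stood at 149, 146 and 135 CPM against 37.5, 34.4 and 34.6 CPM (-2.01 ± 0.08), and here the hairpin 3 libraries were below the control mean of 73.5 CPM. BIRC2 was lower (-1.12 ± 0.13), while BIK (1.47 ± 0.24), PMAIP1, also known as NOXA (1.09 ± 0.17), BCL2A1 (1.07 ± 0.18), BAX (0.86 ± 0.16) and BID (0.71 ± 0.13) were higher, BIK by 0.98 and BCL2A1 by 0.62 with the offsets. The whole list of 20 held 5 higher and 10 lower, with a median of -0.31. Of 28 p53 targets 7 were higher and 12 lower, with a median of -0.19 that was -0.01 with replicate 1 alone. Over all genes tested the shares were 33.4% higher and 31.9% lower. PLK2 (202, 202 and 212 against 68.0, 71.4 and 73.2 CPM, -1.54 ± 0.06), BTG2 (-1.38 ± 0.08), TNFRSF10B (-0.78 ± 0.07) and TIGAR (-0.48 ± 0.06) were lower. DDB2, a repair gene (1.76 ± 0.14), and PIDD1 (1.06 ± 0.14) were higher.

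Autophagy genes were lower with hairpin 3. Autophagy wraps cargo in LC3-coated membranes and delivers it to lysosomes. Of 16 autophagy genes and factors 15 were lower with a median of -0.66 and none was higher by edgeR, by edgeR at an unadjusted p under 0.05, by DESeq2 or by limma, and over the list with its lysosomal genes 25 of 35 were lower and 1, CTSZ (0.32 ± 0.10), higher. GABARAPL1, of the LC3 family, stood at 138, 136 and 138 CPM against 13.99, 17.7 and 17.95 CPM (-3.05 ± 0.10), and the hairpin 3 libraries were at the level of the control mean, 18.8 CPM. The receptors OPTN (199, 184 and 190 against 60.05, 62.9 and 67.7 CPM, -1.59 ± 0.07) and NBR1 (-0.99 ± 0.10), the scramblase gene ATG9A (-1.12 ± 0.07), the lysosomal protease gene TPP1 (-1.53 ± 0.07) and MAP1LC3B (-0.65 ± 0.05) were lower too. The median of the list against the control was 0.37 with hairpin 2 and -0.13 with hairpin 3.

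Stress pathways split by branch. Genes of ATF4, which drives amino acid supply, had medians below the control in both lines, -1.74 for hairpin 2 and -1.40 for hairpin 3. Between the lines the median of the 48 tested members was 0.08. Of them 21 were higher and 12 lower, against 33.4% and 31.9% over all genes tested. Of the 12 enzymes 11 were higher with hairpin 3. PSAT1, of serine synthesis, stood at 49.2, 47.6 and 50.1 CPM against 151, 142 and 137 CPM (1.55 ± 0.07), far below the control mean of 472 CPM in both lines. PCK2 (1.65 ± 0.11), the transporter gene SLC1A4 (1.74 ± 0.09), the tRNA synthetase gene YARS1 (1.28 ± 0.08) and ATF5 (1.35 ± 0.09) were higher, while AARS1 (-0.80 ± 0.06), the pseudokinase gene TRIB3 (-1.03 ± 0.12) and ALDH1L2 (-1.10 ± 0.34) were lower. ALDH1L2 was not called without replicate 3 of hairpin 2 (-0.89), without replicate 3 of hairpin 3 (-0.87) or with replicate 1 alone (-0.55).

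Most heat shock genes were higher and most genes of the unfolded protein response lower. Of 33 heat shock genes 22 were higher and 3 lower (5 lower with the offsets), with a median of 0.42. HSP90AA1 stood at 943, 942 and 929 CPM against 1885, 1747 and 1733 CPM (0.93 ± 0.06), and the chaperonin genes CCT4 (0.99 ± 0.06) and HSPD1 (0.70 ± 0.06) and the cochaperone genes DNAJB1 (0.85 ± 0.07) and DNAJB6 (0.72 ± 0.05) were higher. The lower members were HSPA1B (257, 246 and 227 against 86.5, 114 and 111 CPM, -1.23 ± 0.11), which has a near-identical copy, DNAJB4 (-1.50 ± 0.14) and HSPA6 (-1.51 ± 0.38). Of 31 genes of the unfolded protein response 6 were higher and 19 lower, with a median of -0.30. The 17 chaperones and folding enzymes among them held 4 higher and 8 lower. XBP1, a factor of the response, stood at 109, 104 and 107 CPM against 58.4, 57.6 and 58.9 CPM (-0.87 ± 0.07). The sensor gene EIF2AK3 (-1.58 ± 0.13), HERPUD1 (-0.83 ± 0.07), SEC61A1 (-0.79 ± 0.07) and SYVN1 (-0.69 ± 0.08) were lower, and the sensor gene ATF6 was higher (1.11 ± 0.09), though not called on log2(TPM + 1), at 0.53.

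NRF2 targets, which handle oxidants and iron, were lower in 12 of 24 tested members, 9 by at least 2-fold, and higher in 3, with a median of -0.36. HMOX1, heme oxygenase, stood at 251, 248 and 238 CPM against 32.2, 46.6 and 47.2 CPM (-2.55 ± 0.15), with 74.9 CPM in the controls. FTH1, the ferritin heavy chain, stood at 3069, 3021 and 2943 CPM against 836, 1181 and 1238 CPM (-1.47 ± 0.17), with 1288 CPM in the controls. In both genes the hairpin 3 libraries were below the control mean. ME1 (-1.26 ± 0.08), OSGIN1 (-1.81 ± 0.20) and NFE2L2, which encodes NRF2 (-0.69 ± 0.06), were lower, and the pentose phosphate genes PGD (0.88 ± 0.08) and TALDO1 (0.64 ± 0.14) and the transporter gene ABCC3 (0.95 ± 0.13) were higher. Among metallothioneins MT1X stood at 6.85, 6.17 and 8.11 CPM against 21.3, 30.0 and 35.0 CPM (2.03 ± 0.23), and MT2A (1.05 ± 0.18) and MT1M (1.21 ± 0.38) were higher, while their activator gene MTF1 (-1.18 ± 0.14) and the zinc exporter gene SLC30A1 (-0.87 ± 0.16) were lower. MT2A was at 0.55 with the offsets and SLC30A1 at -0.57 with replicate 1 alone. MT1M was a gene of low level, averaging 0.48 against 1.13 CPM, and was not called higher with the offsets. MT1E (0.05), MT1F (0.88) and SLC39A10 (0.45) were not called, MT1E turned to -0.51 with the offsets, and SLC39A10 was called with the offsets (0.66) and with replicate 1 alone (0.92).

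Metabolic lists held opposing members. SLC2A3, the glucose transporter GLUT3, stood at 413, 419 and 425 CPM against 88.9, 84.9 and 85.1 CPM (-2.28 ± 0.07), and both lines were above the control mean of 27.8 CPM. SLC2A14, its close paralogue, whose reads may be shared with it, differed by -2.15 ± 0.27. LDHA, lactate dehydrogenase, stood at 901, 845 and 826 CPM against 1543, 1598 and 1625 CPM (0.89 ± 0.06). HK1 was higher (0.55 ± 0.05), and BNIP3L (-0.68 ± 0.07), EGLN1 (-0.87 ± 0.10) and EPAS1 (-1.20 ± 0.30) were lower, EGLN1 by -0.53 with the offsets and EPAS1 not called with replicate 1 alone (-0.86). Over the glycolysis and hypoxia list 18 of 36 were higher and 7 lower, with a median of 0.33 (11 higher and a median of 0.20 with replicate 1 alone). Of 34 cholesterol and lipid genes 12 were higher and 14 lower, and with replicate 1 alone 7 were higher. Among genes of fatty acid synthesis FADS2 stood at 4.09, 4.76 and 4.88 CPM against 16.5, 17.3 and 17.8 CPM (1.91 ± 0.13). SCD (1.31 ± 0.12) and FASN (0.61 ± 0.06) rose with it. HMGCS1 of sterol synthesis (-1.23 ± 0.11), its activator gene SREBF2 (-0.73 ± 0.06) and INSIG2 (-0.76 ± 0.08) fell. Neither branch moved as a whole. Sterol enzymes held 7 higher and 7 lower of 20, fatty acid enzymes 3 and 3 of 7, and regulators and uptake genes 2 and 4 of 7. Over all genes tested the shares were 33.4% higher and 31.9% lower.

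Growth factor signalling genes differed by branch. Among ERK output genes, which report on the RAS and MAP kinase cascade, 18 of 34 were higher and 4 lower, with a median of 0.24. With the offsets 18 were higher and 10 lower. DUSP6, the ERK phosphatase, stood at 51.4, 51.4 and 50.1 CPM against 181, 163 and 169 CPM (1.74 ± 0.08), near its control mean of 202 CPM with hairpin 3. DUSP7 (1.71 ± 0.09), the ETS factor genes ETV4 (1.44 ± 0.14) and ETV5 (1.09 ± 0.12), PHLDA1 (0.95 ± 0.07) and FOS (0.87 ± 0.07) were higher. FOSL2 (-1.18 ± 0.14), DUSP10 (-0.70 ± 0.20), NR4A2 (-0.88 ± 0.10) and NR4A3 (-0.92 ± 0.20) were lower. The receptor kinase gene AXL stood at 162, 165 and 158 CPM against 369, 365 and 354 CPM (1.16 ± 0.06). AREG, an EGF receptor ligand (0.76 ± 0.08), FGFR3 (0.87 ± 0.12) and FGFR4 (0.86 ± 0.15) were higher and IGF1R lower (-0.86 ± 0.11). Receptor and ligand genes together held 7 higher and 6 lower of 17 tested, with a median of -0.04. The shares over all genes tested were 33.4% and 31.9%. The AREG difference became 0.38 with the offsets, the IGF1R difference -0.43 with the offsets, and the FGFR4 difference 0.51 with replicate 1 alone. NRG4 (0.62 ± 0.19) was not called on log2(TPM + 1) (0.24), without replicate 1 of hairpin 2 (0.54), without replicate 3 of hairpin 3 (0.48) or with replicate 1 alone (0.44). ERBB3 (-0.04), FGFR2 (-0.04), MET (-0.12) and NRG1 (0.11) were not called.

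In the TGF-beta, BMP and activin list 17 of 34 tested members were lower and 4 higher, with a median of -0.39. With the offsets 7 were higher, and with replicate 1 alone 10 were lower. BMP2 stood at 139, 147 and 157 CPM against 24.3, 21.3 and 19.5 CPM (-2.77 ± 0.09), with 12.5 CPM in the controls. The inhibitory SMAD7 stood at 73.6, 74.0 and 71.8 CPM against 22.96, 22.7 and 24.4 CPM (-1.65 ± 0.12), with 12.2 CPM in the controls. Both genes were above the control in both lines and less so with hairpin 3. The receptor genes ACVR2A (-1.23 ± 0.10) and TGFBR2 (-1.02 ± 0.10) and the activin antagonist gene FST (-1.03 ± 0.10) were lower. The higher members included the receptor gene TGFBR1 (0.72 ± 0.17) and the procollagen protease gene BMP1 (0.53 ± 0.13).

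Ribosome genes were higher, by an amount that moved with the library. Of 78 cytosolic ribosomal protein genes 74 were higher, with a median of 0.66, and none was lower by edgeR, by edgeR at an unadjusted p under 0.05, by DESeq2 or by limma. RPL9 stood at 778, 728 and 674 CPM against 1277, 1716 and 1874 CPM (1.16 ± 0.16), and RPL23 at 706, 639 and 596 CPM against 1120, 1427 and 1519 CPM (1.07 ± 0.13). Replicate 1 was the lowest hairpin 3 library in both. RPL24 (1.08 ± 0.16), RPL22 (0.96 ± 0.11), RPS3A (0.92 ± 0.14, and 0.59 with the offsets) and RPL15 (0.72 ± 0.10) followed, and RPL10 (0.24), RPS19 (0.30) and RPS27 (0.35) were among those not called. The medians of the hairpin 3 replicates against the hairpin 2 mean were 0.31, 0.76 and 0.86, in the order of their length slopes, and these genes are short, with a median length of 1842 bp against 3673 bp over all genes. With the offsets 58 were higher, 1 was lower and the median was 0.36, and with replicate 1 alone 16 were higher with a median of 0.31.

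Nucleolar and MYC-network genes held 24 higher and 4 lower of 34, with a median of 0.40 (0.25 with the offsets). NCL, nucleolin, stood at 1002, 953 and 948 CPM against 1708, 1772 and 1852 CPM (0.88 ± 0.06). RRS1 (0.68 ± 0.06), NOP58 (0.69 ± 0.08), NPM1 (0.54 ± 0.06) and DKC1 (0.43 ± 0.06) were higher, NPM1 by 0.27 and RRS1 by 0.36 with the offsets, and DKC1 was not called on log2(TPM + 1) (0.15). The MYC antagonist genes MXI1 (-0.89 ± 0.09), MXD1 (-0.59 ± 0.11) and MNT (-0.49 ± 0.07) and POLR1A (-0.29 ± 0.12) were lower. The call of POLR1A was narrow (adjusted p = 0.0476 in edgeR), and it was not called lower with the offsets. Of 68 nuclear-encoded respiratory chain genes 32 were higher and 1, UQCRC2 (-0.23 ± 0.06), lower, with a median of 0.34. With the offsets 21 were higher and 15 lower with a median of 0.06, and with replicate 1 alone 6 were higher and 3 lower with the same median. NDUFA5 of complex I, at 53.2, 54.9 and 62.3 CPM against 102, 95.2 and 93.4 CPM (0.77 ± 0.09), UQCRQ (1.19 ± 0.18), NDUFC2 (0.84 ± 0.15) and NDUFA10 (0.54 ± 0.08) were called with the offsets too, UQCRQ at 0.69, and NDUFB3 (0.62 ± 0.10) and SDHD (0.49 ± 0.08) were not, at 0.10 and 0.15. NDUFC2 was 0.56 with replicate 1 alone, and NDUFA10 (0.17) and SDHD (0.21) were not called on log2(TPM + 1).

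**Figure D5:**
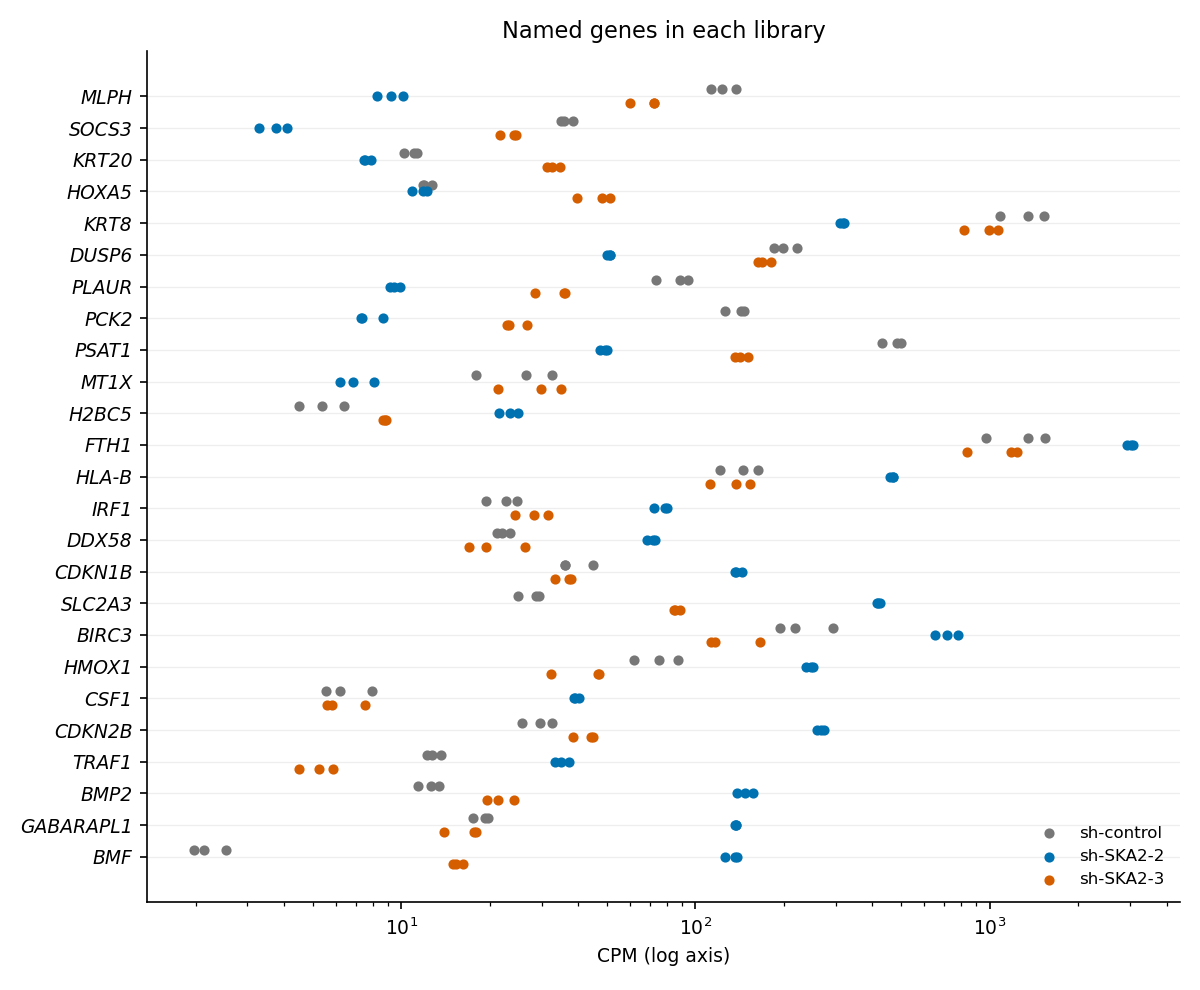
CPM on a log axis of 25 named genes in each library of sh-control (grey), sh-SKA2-2 (blue) and sh-SKA2-3 (orange). The hairpin groups do not overlap in any of these genes, which were chosen among called genes. Over all genes tested the sh-SKA2-3 libraries lie all above sh-SKA2-2 in 34.8% and all below in 34%. In CDKN1B, GABARAPL1 and HLA-B the sh-SKA2-3 libraries (33.3 to 37.7, 13.99 to 17.95 and 113 to 153 CPM) lie within or just below the range of the control libraries.

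Epithelial genes moved in both directions. Of 38 junction and keratin genes 16 were higher and 10 lower, against 33.4% and 31.9% over all genes tested. Their median was 0.25 (0.10 with replicate 1 alone). KRT8, a keratin of simple epithelia, stood at 320, 317 and 311 CPM against 821, 998 and 1065 CPM (1.61 ± 0.12), and KRT20, a keratin of differentiated gut epithelium, at 7.45, 7.91 and 7.51 CPM against 31.3, 34.8 and 32.6 CPM (2.11 ± 0.08). KRT8 was below its control mean of 1324 CPM in both lines, whereas KRT20 was above its control mean of 10.9 CPM with hairpin 3. CDH1 (1.77 ± 0.20) and F11R (0.55 ± 0.06) were higher. CTNND1, the p120 catenin that holds cadherins at the membrane, stood at 773, 758 and 768 CPM against 312, 232 and 223 CPM (-1.58 ± 0.18), and CLDN1 (-2.16 ± 0.10), CLDN12 (-1.47 ± 0.19), GRHL2 (-1.29 ± 0.20), DSC2 (-1.14 ± 0.19) and DSG2 (-1.02 ± 0.26) were lower. F11R was not called on log2(TPM + 1) (0.27), DSC2 was at -0.60 with the offsets, and DSG2 was not called with replicate 1 alone (-0.55).

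Of 19 mesenchymal markers 8 passed the filter. VIM, vimentin, stood at 1.54, 2.57 and 3.23 CPM against 7.87, 7.40 and 8.72 CPM (1.70 ± 0.19), and ACTA2 (1.33 ± 0.16) was higher, while ZEB1 (-0.86 ± 0.17) and COL1A1 were lower. ZEB1 was not called with replicate 1 alone (-0.59), and SNAI1 (0.30), TAGLN (-0.06), FN1 (0.04) and PRRX1 (0.74) were not called. SNAI1 turned to -0.05 with the offsets and TAGLN to 0.09 without replicate 1 of hairpin 3, and TAGLN was -0.18 with the offsets and -0.41 with replicate 1 alone. Matrix proteases and their inhibitors were higher in 11 of 17 tested members and lower in 3, with PLAUR, the urokinase receptor, at 9.13, 9.90 and 9.49 CPM against 28.4, 35.7 and 36.0 CPM (1.81 ± 0.12). Laminin and collagen genes were mostly lower, 5 of 8 tested with 1 higher and a median of -0.54. LAMB1 was the higher one (1.24 ± 0.08), and LAMC1 (-1.79 ± 0.11) and LAMB2 (-1.09 ± 0.07) were lower. Integrin genes held 3 higher and 3 lower of 11 tested, against 33.4% and 31.9% over all genes tested. Integrin beta 5 was higher (ITGB5, 1.07 ± 0.07) and its partner alpha V lower (ITGAV, -1.70 ± 0.23), and the sheddase gene ADAM17 was lower (-1.33 ± 0.20).

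Among factors of lineage, more HOX genes were higher than lower, and gastrointestinal genes were near the shares of all genes. Of 41 gastrointestinal lineage genes 19 passed the filter, with 6 higher (3 with replicate 1 alone) and 8 lower, against 33.4% and 31.9% over all genes tested, and a median of 0.00. SOX2, a factor of foregut and stomach, stood at 2.69, 3.41 and 2.77 CPM against 7.42, 6.83 and 6.32 CPM (1.21 ± 0.13), and FOXA2 (1.29 ± 0.25) and SOX9 (0.56 ± 0.10) were higher, SOX9 not called on log2(TPM + 1), at 0.26. KLF4 (-1.09 ± 0.12), KLF5 (-0.69 ± 0.11) and GATA6 (-0.58 ± 0.09) were lower. Among HOXA and HOXB genes, which pattern the body axis, 11 of 19 tested were higher and 1 lower, with a median of 0.35. With the offsets 8 were higher and 3 lower, with a median of 0.26. The median was 0.39 with replicate 1 alone. HOXA5 stood at 11.9, 12.2 and 10.9 CPM against 39.7, 48.3 and 51.3 CPM (1.99 ± 0.10), with 12.2 CPM in the controls. HOXB5 (0.98 ± 0.13), HOXA2 (1.01 ± 0.20) and HOXB9 (0.49 ± 0.07, and 0.31 with the offsets) were higher, and HOXA3 was lower (-0.64 ± 0.07), although it was above its control mean in both lines, by 1.93 and 1.29 on the log2 scale. Of 8 MEF2 and class IIa HDAC genes MEF2D (-1.26 ± 0.08), MEF2A (-1.37 ± 0.13) and HDAC9 (-1.15 ± 0.20) were lower, HDAC9 at -0.72 with the offsets. HDAC5 (0.26 ± 0.10) was called higher, but not under RLE scaling or in DESeq2 (0.25 in both), with no filter (0.27), with replicate 1 alone (0.09), without any 1 library other than that replicate (0.18 to 0.28) or on log2(TPM + 1) (-0.02). HDAC7 (0.17) and MEF2B (-0.44) were not called. HDAC7 was called higher with the offsets (0.32, adjusted p = 0.0051 in edgeR) and without replicate 1 of hairpin 3 (0.28), and was -0.06 with that replicate alone, and MEF2B was -0.87 with the offsets, also not called.

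The machinery that processes hairpins also differed between the lines. Of the 7 Argonaute and GW182 family genes, which carry out silencing, 5 were lower, with a median of -1.12 (-0.77 with the offsets), and none was higher by edgeR, by edgeR at an unadjusted p under 0.05, by DESeq2 or by limma. With the offsets 1 was higher and 4 lower. These transcripts are long, with a median of 13708 bp. TNRC6B stood at 181, 186 and 205 CPM against 102, 56.8 and 57.8 CPM (-1.40 ± 0.24), and AGO4 at 106, 102 and 106 CPM against 58.6, 42.8 and 38.4 CPM (-1.17 ± 0.18). Replicate 1 was the highest hairpin 3 library in both. The TNRC6B difference was -0.77 with the offsets and -0.91 with replicate 1 alone, and TNRC6C differed by -1.22 ± 0.16. AGO2, the cutting enzyme, was not called (-0.56), nor was AGO1 (-0.04), DGCR8 (-0.10) or XPO5 (0.06). DROSHA, the nuclear cutter, was lower (-0.67 ± 0.05), and TARBP2 (1.07 ± 0.13) and PRKRA (0.83 ± 0.07), which assist Dicer, were higher. Over all 13 members 2 were higher and 7 lower, with a median of -0.67 that was -0.04 with the offsets.

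Genes around SKA2 on 17q22-q23 were higher and lower at shares near those of all genes tested. Of 23 tested, with SKA2 itself counted in, 9 were higher and 8 lower, against 33.4% and 31.9% over all genes. The median was 0.07, which is the difference of SKA2 itself. That median was 0.21 with the offsets and 0.28 with replicate 1 alone. TRIM37, the ubiquitin ligase of centrosomes, stood at 200, 197 and 196 CPM against 74.7, 62.1 and 61.6 CPM (-1.58 ± 0.12). YPEL2 (-1.60 ± 0.19), USP32 (-1.22 ± 0.19) and RNF43 (-1.05 ± 0.13) were lower, the USP32 difference at -0.78 with replicate 1 alone. RAD51C (0.88 ± 0.09) and SUPT4H1 (0.70 ± 0.11) were higher, SUPT4H1 at 0.38 with the offsets and 0.46 with replicate 1 alone.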

How the data were processed

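Libraries of poly(A) RNA were sequenced on a BGISEQ-500, per the labels' protocols, and no step that marks strand is named there. The authors deposited expected counts, FPKM and TPM per gene and library. The submitters' processing notes name HISAT, Bowtie2, RSEM, DESeq2 and GRCh38.p13, with no role or version. Whole numbers made up 84.0 to 86.0% of the expected counts, and the rest were rounded. The deposited FPKM values were only summed as a check, and the deposited TPM values served 1 alternative. Another 15 columns of the table were not used.

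Counts were scaled by TMM and fitted with edgeR 4.0.16 in R 4.3.3 over all 12 libraries, with 1 factor for the line, after edgeR's default filter on low counts. The contrast was tested by quasi-likelihood with Benjamini-Hochberg adjustment over all 12868 genes. The SE is the log2 difference divided by the square root of F. Genes named are SKA2, SKA1, SKA3 and PRR11. Also named are the 12 largest rises and 12 largest falls among called genes with a symbol (placeholder LOC names counted as without one) whose 6 libraries averaged 1 CPM or more and whose groups did not overlap. In each list up to 6 members of smallest adjusted p were named, with members called at least 2-fold against the majority of their list. A few genes that meet these rules are not reported here. The members and lists were chosen with earlier results of these data known. Length and GC content came from GENCODE v29 for 12771 genes, and promoters from RefSeq (GRCh38.p14).

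Alternatives were RLE scaling, DESeq2 1.42.0, no filter, a filter at 5 CPM, the 6 libraries alone, a replicate block, loess offsets for length and GC content, limma 3.58.1 on log2(TPM + 1) and leaving out each library. Replicate 1 as the only hairpin 3 library was added after seeing the data, and its spread is then assumed to be that of the other groups. The scripts were tested on simulated data. Counting intervals cover counting error only.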

Additional observations from a re-analysis of the deposited data

How the results depend on the processing

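The main counts were 4295 higher and 4105 lower. Both stayed within 1.5 times under every alternative except limma on log2(TPM + 1), which called 2469 higher. Leaving out 1 library at a time gave 3733 to 4529 higher and 3628 to 4519 lower. Of genes at least 2-fold higher, 1046 in the main count, 673 were left by the filter at 5 CPM, which tests fewer genes, and 315 by limma on log2(TPM + 1), which called 1511 at least 2-fold lower against 1175 and moved the median of all genes by -0.22. The SKA2 difference of 0.07 was -0.19 with limma on log2(TPM + 1), 0.03 relative to that median, and -0.020 with hairpin 3 replicate 1 as the only hairpin 3 library. Of the 250 named genes 249 kept their direction and side of the threshold under RLE scaling and 249 in DESeq2, 243 with the offsets, 235 with limma on log2(TPM + 1) and 238 with replicate 1 alone. Samples with the same replicate number did not deviate together between the lines (r = -0.228, -0.0074 and -0.208). These correlations cover hairpins 2 and 3 alone and cannot tell whether a replicate number marks something shared across the series. With the replicate block 4297 genes were higher and 4235 lower, 1032 and 1220 by at least 2-fold. SKA2 then differed by 0.07, and 250 of 250 named genes kept their call.

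Signs turned in genes whose main difference was small. With the offsets ULBP3 was -0.20, MT1E -0.51 (called lower) and SNAI1 -0.048. With limma on log2(TPM + 1) ULBP3 was -0.0036, MT1E -0.27 (called lower), HDAC5 -0.024 and HDAC7 -0.12. Relative to the median of all genes in that fit they were 0.22, -0.05, 0.20 and 0.11. Leaving out 1 library at a time gave -0.073 (without hairpin 3 replicate 3) to 0.21 for MT1E, which was also below 0 without hairpin 2 replicate 3 (-0.00014) or hairpin 3 replicate 2 (-0.0090), and -0.16 to 0.092 (without hairpin 3 replicate 1) for TAGLN. With replicate 1 alone MT1E was -0.34 and HDAC7 -0.064. The cause was not tested. Of the 35 list medians 18 moved by less than the spread between libraries with the offsets and 17 with replicate 1 alone, and 17 and 18 moved by more. Depth limited genes of a few reads, whose fitted differences are uncertain.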
